A study of Homo sapiens with 8 samples.

Results

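The 4 HOX clusters hold the homeobox genes that pattern the body axis, and they are described here by the enriched islands of 3 antibodies in HT and SUDHL6, 2 established human lymphoma lines of the diffuse large B cell type. Members were all islands that overlapped 1 of 4 intervals on hg19, with positions counted from 1: HOXA on chromosome 7 from 27130001 to 27250000 (120 kb), HOXB on chromosome 17 from 46600001 to 46815000 (215 kb), HOXC on chromosome 12 from 54330001 to 54450000 (120 kb) and HOXD on chromosome 2 from 176940001 to 177060000 (120 kb). Of 58757 islands in the 6 lists, 104 were members. The antibodies were against H3K27me3 (trimethylated lysine 27 of histone H3), against H3K4me3 (trimethylated lysine 4) and against EZH2, and all cells were measured at baseline with no treatment. Each line and antibody had 1 library and 1 list, so no test between the lines was possible and every difference below is one between single libraries. No source used here gives the read depth, and a stretch without an island is not shown to lack the mark. The 2 input libraries, 1 per line, were not analysed here.

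HOX genes encode transcription factors that give cells their position along the head to tail axis, and within a cluster the genes lie in the order in which they act along it. EZH2 is the methyltransferase of the Polycomb complex PRC2 and places H3K27me3 on silent developmental genes, and HOX clusters are textbook targets of PRC2. H3K4me3 marks the starts of active or poised genes and is placed by Trithorax-type complexes, which oppose Polycomb at these loci. In blood cells the HOX clusters are used by stem and progenitor cells, and most HOX genes are turned down in mature cells.

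The 38 member genes were all found in the RefSeq table of GRCh38.p14, which gives their order but not their hg19 positions. By rising coordinate the order was HOXA2 to HOXA13, HOXB1 to HOXB13, HOXC13 down to HOXC4 with its neighbours HOXC5 and HOXC6, and HOXD13 down to HOXD1. Islands are therefore given by position and were not assigned to single genes. Promoter sequences were on file for 20 of the 38 genes, at 26 distinct starts. They are given because Polycomb complexes in vertebrates favour stretches rich in CpG. They show only the DNA just upstream of these starts, most of them in HOXA and HOXD, and not that of whole clusters. Below are the 250 bases upstream of 1 start per cluster, 5′ to 3′ from RefSeq on GRCh38.p14, with each CpG in capitals. HOXA13 had the most CpGs of all 26 starts, HOXB1 was the only HOXB entry, HOXC4 shares its entry with HOXC5, and HOXD13 is the HOXD counterpart of HOXA13.
HOXA13 (chr7:27200092-27200341, minus strand): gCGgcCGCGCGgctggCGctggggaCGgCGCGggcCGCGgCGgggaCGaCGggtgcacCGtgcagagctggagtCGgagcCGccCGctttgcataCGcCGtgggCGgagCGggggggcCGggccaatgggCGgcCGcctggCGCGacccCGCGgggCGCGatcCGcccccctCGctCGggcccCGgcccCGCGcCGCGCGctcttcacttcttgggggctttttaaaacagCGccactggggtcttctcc
HOXB1 (chr17:48531012-48531261, minus strand): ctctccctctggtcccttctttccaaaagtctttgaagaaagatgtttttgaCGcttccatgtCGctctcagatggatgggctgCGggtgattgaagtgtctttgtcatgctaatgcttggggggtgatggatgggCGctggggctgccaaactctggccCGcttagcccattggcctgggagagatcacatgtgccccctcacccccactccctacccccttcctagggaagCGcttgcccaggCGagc
HOXC4 (chr12:54016638-54016887, plus strand): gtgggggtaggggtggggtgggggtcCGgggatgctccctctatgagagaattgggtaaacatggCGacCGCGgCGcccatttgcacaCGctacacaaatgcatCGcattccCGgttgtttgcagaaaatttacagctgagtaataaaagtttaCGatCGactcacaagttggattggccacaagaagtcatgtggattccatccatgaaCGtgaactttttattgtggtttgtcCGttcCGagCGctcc
HOXD13 (chr2:176092471-176092720, plus strand): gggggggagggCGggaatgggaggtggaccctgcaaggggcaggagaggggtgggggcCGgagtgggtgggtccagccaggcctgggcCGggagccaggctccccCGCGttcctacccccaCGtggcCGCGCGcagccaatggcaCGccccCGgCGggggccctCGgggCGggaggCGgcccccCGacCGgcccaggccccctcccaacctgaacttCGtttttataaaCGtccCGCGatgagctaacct
These hold 40 CpGs (HOXA13), 7 (HOXB1), 14 (HOXC4) and 21 (HOXD13). The 26 starts had a median of 19.5 CpGs (0 to 40), against a median of 11 over all 34943 distinct promoters of the table. By cluster the medians were 19 for HOXA (16 starts) and 22 for HOXD (8 starts), while HOXB and HOXC had 1 start each. The 16 HOXA starts came from 9 genes, and HOXA3, with 0 to 26 CpGs, had the most starts of any. The HOXA median and that of the 26 starts thus give HOXA3 more weight than other genes. At least 40 CpGs, the number of HOXA13, were present in 2.17% of all promoters, and at least 7, the number of HOXB1, in 58.8%. Median GC content was 58.8% at the HOX starts and 58% over all promoters, and no test was made of either comparison. Because the builds differ, no island was placed on these sequences.

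H3K27me3 covered more of each cluster in HT than in SUDHL6. Over the 575 kb of the 4 intervals, HT islands covered 241.2 kb (41.9%) and SUDHL6 islands 42.3 kb (7.36%), a ratio of 5.70. The intervals held 53 H3K27me3 islands in HT and 16 in SUDHL6. Cover in HT was 32.5% of HOXA, 35.8% of HOXB, 84.9% of HOXC and 19.5% of HOXD. Cover in SUDHL6 was 16.4% of HOXA, 4.81% of HOXB, 10.25% of HOXC and 0% of HOXD. The 2 lines thus ordered the clusters differently, with HOXC first in HT and HOXA first in SUDHL6. The whole H3K27me3 lists were of nearly the same length, 54.4 Mb in HT and 51.3 Mb in SUDHL6.

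**Figure D1:**
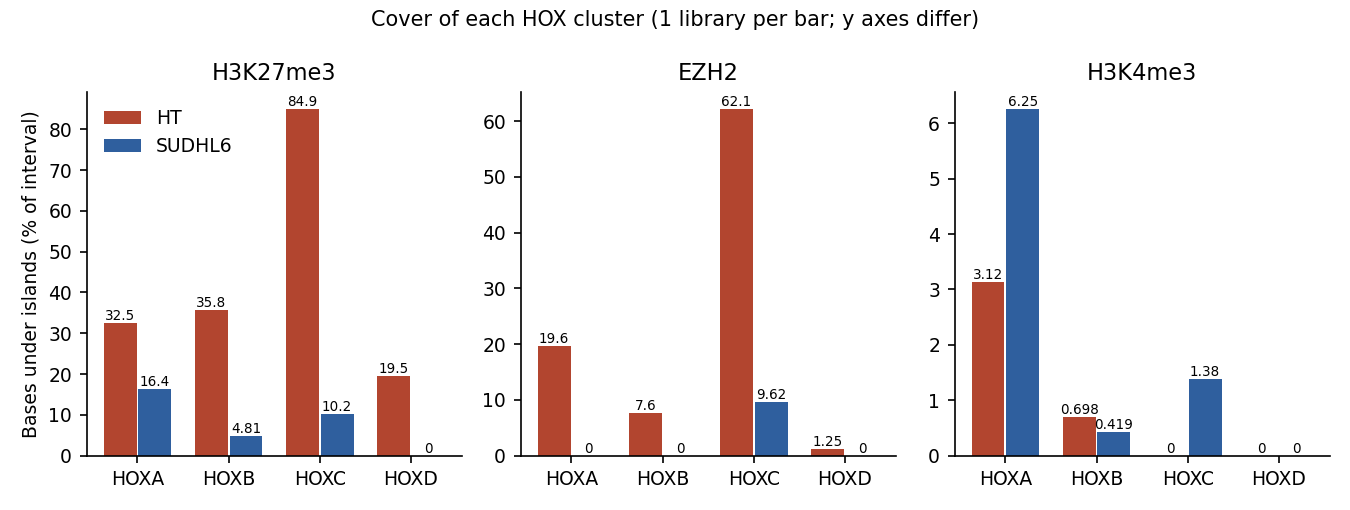
Bases under islands as a percentage of each HOX interval, by antibody, for HT and SUDHL6, with 1 library per bar. HT H3K27me3 and EZH2 peak at HOXC (84.9% and 62.1%), and H3K4me3 stays at or below 6.25%.

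All 4 clusters had an H3K27me3 cover at least 10 percentage points higher in HT, by 16.1 points in HOXA, 31.0 in HOXB, 74.6 in HOXC and 19.5 in HOXD. Among 25503 windows of 120 kb tiled over the genome, 2.58% were higher in HT by that much and 3.12% were higher in SUDHL6. The order of these shares depended on the limit, since at 5 points 6.61% were higher in HT and 5.09% in SUDHL6. At 20 points, which HOXA and HOXD did not reach, the shares were 0.667% and 1.34%. A difference in favour of HT as large as that of HOXC was found in 2 of the 25503 windows, neither of which overlapped a HOX interval. For HOXA, HOXB and HOXD the numbers of windows were 273, 66 and 180, of which 5, 2 and 5 overlapped a HOX interval. Windows were not aligned to any domain, and the HOXB interval is longer than a window. Among 14228 windows of 215 kb, 29 were as different as HOXB. The 10-point limit, the window size and the members were all set with earlier results known.

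**Figure D2:**
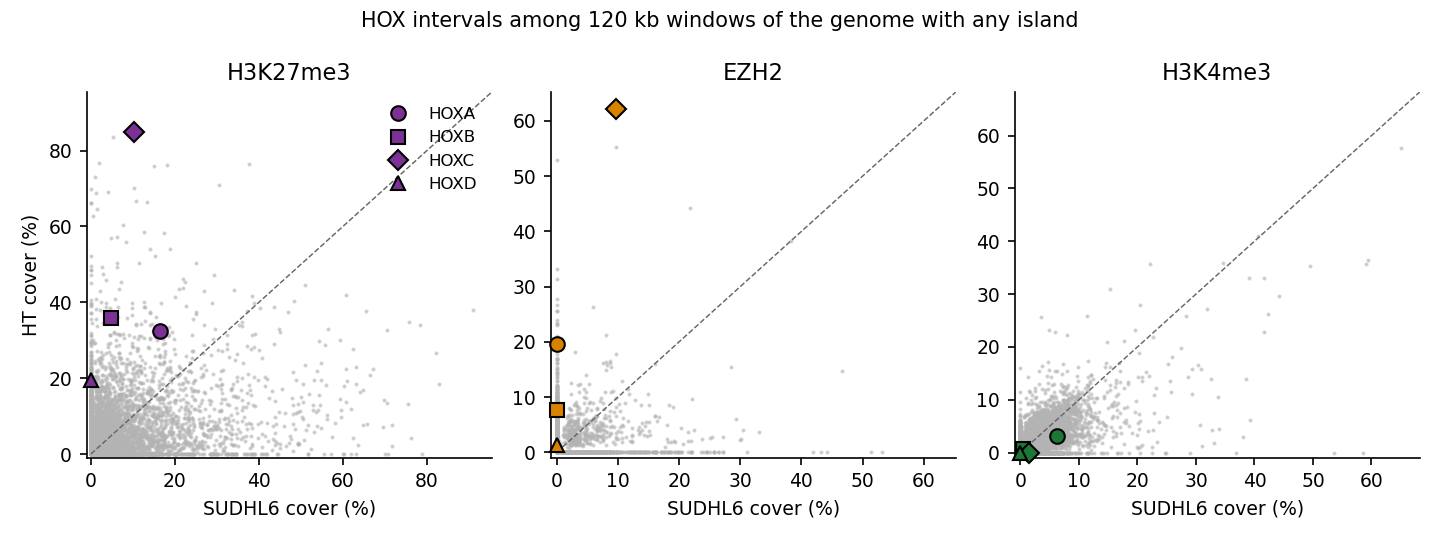
H3K27me3, EZH2 and H3K4me3 cover of 120 kb windows in HT (vertical) and SUDHL6 (horizontal), with grey points for windows holding any island, large symbols for the 4 HOX intervals and a dashed line of equality. HOXC lies at the upper left for H3K27me3 and EZH2, and all clusters lie near the origin for H3K4me3.

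The rest of the 4 chromosomes did not show the same direction throughout. Outside the cluster, H3K27me3 covered less in HT on the chromosomes of HOXA (ratio HT over SUDHL6 0.493), HOXB (0.765) and HOXD (0.804), and more on the chromosome of HOXC (1.46). Directly beside the clusters H3K27me3 cover was higher in HT in all 6 flanks of 120 kb that held an island. Of the 120 kb after HOXC, 41.25% was covered in HT and 4.75% in SUDHL6, and of the 120 kb after HOXB 27.75% and 1.13%. Before these clusters HT and SUDHL6 covered 10.1% and 0.75% at HOXC and 10.9% and 6.13% at HOXB. The 120 kb on either side of HOXD held no H3K27me3 island in either line. Beside HOXA, HT and SUDHL6 covered 1.75% and 0% before the interval and 7.29% and 4.13% after it. Copy number was not measured, so its part in these differences was not tested.

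**Figure D3:**
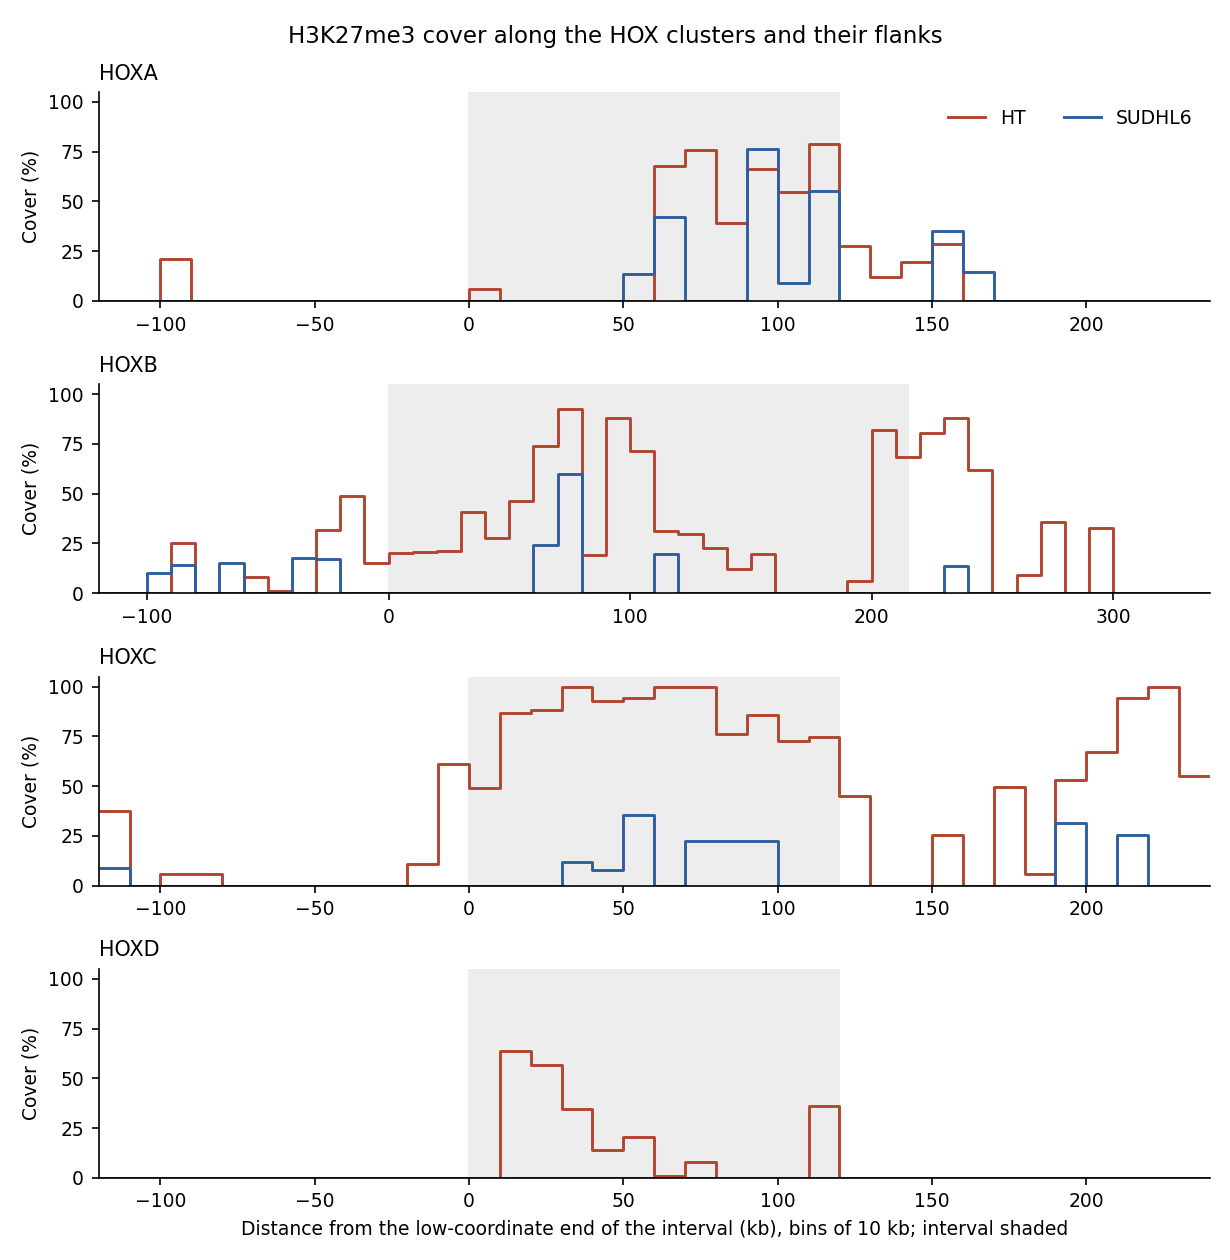
H3K27me3 cover in bins of 10 kb along each HOX interval (shaded) and the 120 kb on both sides, for HT and SUDHL6. HT stays at or above 49.0% in every bin of HOXC, and HOXD shows HT signal inside the interval alone.

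HOXC was nearly filled by H3K27me3 in HT. All 12 bins of 10 kb held the mark there, with a lowest cover of 49.0%, a median of 87.25% and a highest of 100%. In SUDHL6, 6 of the 12 bins held it, with a median of 4% and a highest of 35.5%. HT was higher in all 12 bins. The widest HT islands of HOXC were 28.5 kb (54383101 to 54411600), 21.6 kb (54356551 to 54378150) and 11.25 kb (54414001 to 54425250). By width they ranked 23, 44 and 259 among the 16919 islands of the list. The widest gap without HT H3K27me3 in the interval was 5.10 kb, from 54332251 to 54337350.

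The 5 H3K27me3 islands of SUDHL6 in HOXC were short and separate. They spanned 54366301 to 54367500, 54379201 to 54383550, 54400201 to 54402450, 54414451 to 54416700 and 54427651 to 54429900, and were 1.20 to 4.35 kb wide. HT islands covered 100% of the first, the third and the fourth, 86.2% of the second and 73.3% of the last. Of the SUDHL6 H3K27me3 bases in HOXC 90.2% were also covered in HT, whereas 10.9% of the HT bases were covered in SUDHL6. These shares were near the cover of the whole interval, 84.9% in HT and 10.25% in SUDHL6, and whether the overlap exceeds that cover was not tested. Most SUDHL6 bases lay within the HT domain, and that domain was mostly without SUDHL6 islands.

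**Figure D4:**
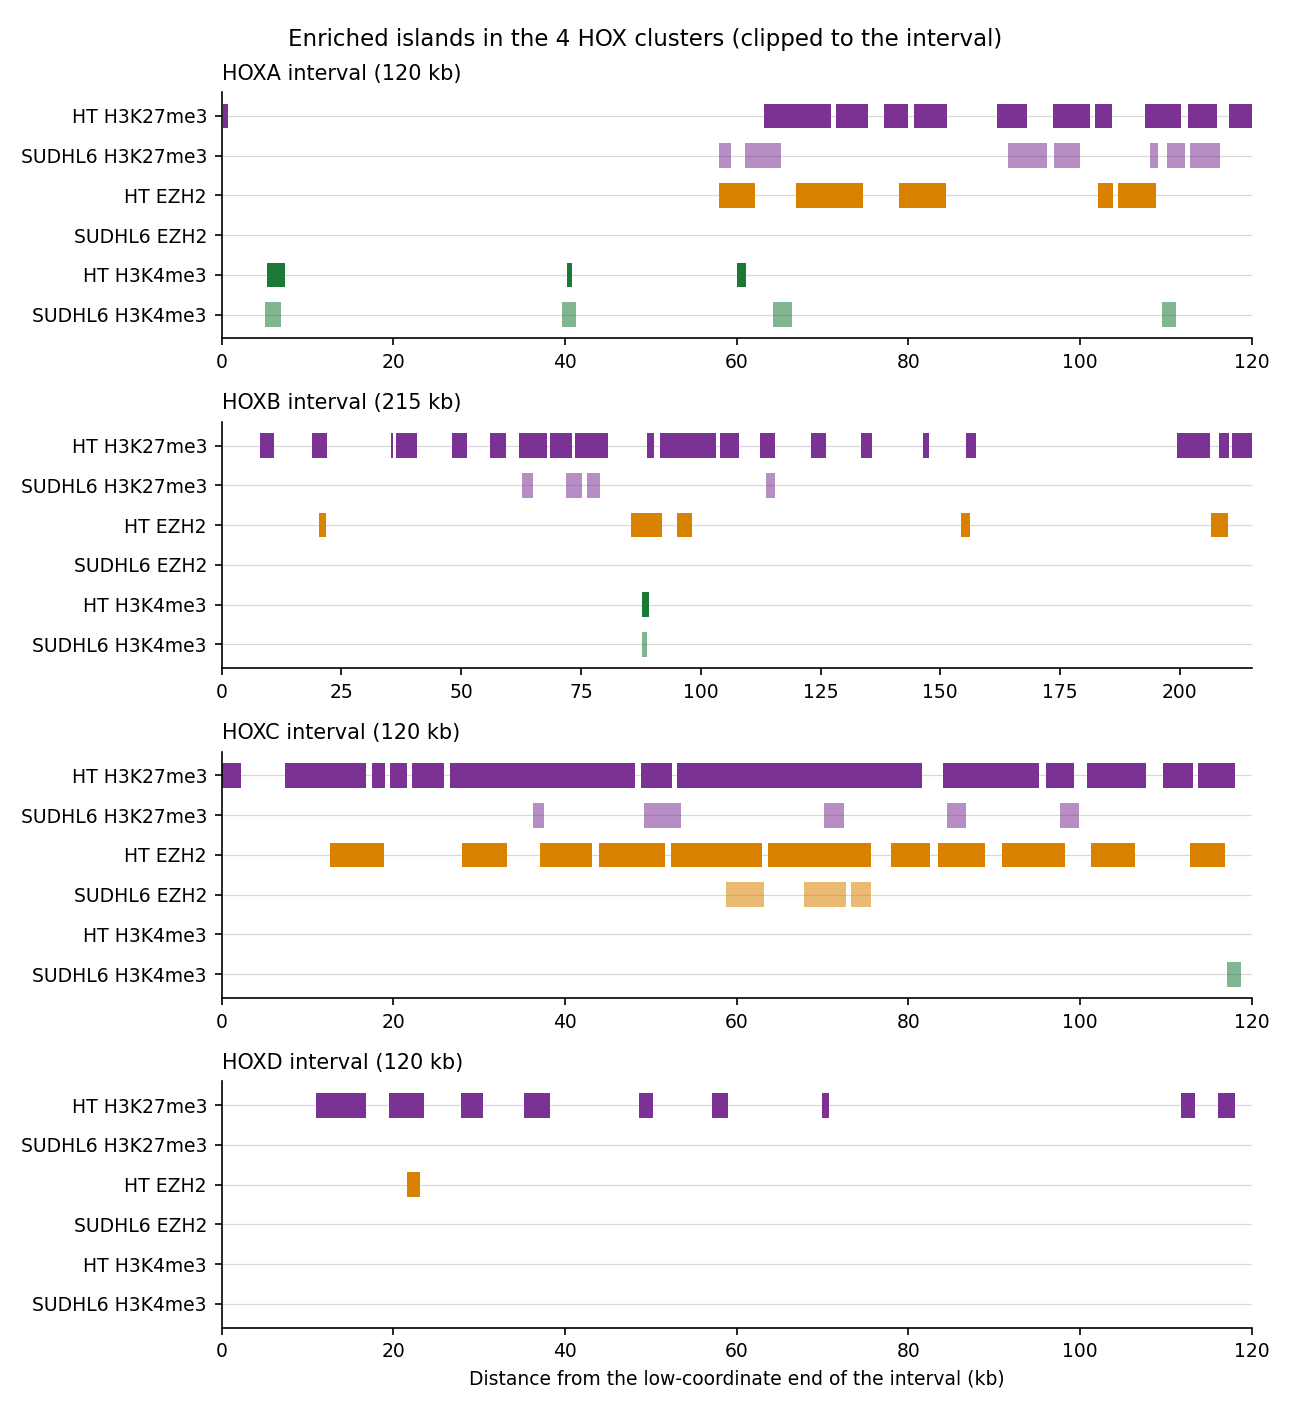
Islands of the 6 lists drawn to scale along each HOX interval, in kb from its low-coordinate end, with 1 row per antibody and line and islands clipped to the interval. HT H3K27me3 covers 84.9% and HT EZH2 62.1% of HOXC, the first 57.95 kb of HOXA hold a single short H3K27me3 island, of HT, and SUDHL6 has no island of any antibody in HOXD.

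HOXA was divided by a position that was nearly the same in both lines. In HT a single short island, from 27130201 to 27130800, was followed by 62.4 kb without H3K27me3, and the mark then ran from 27193201 to beyond the end of the interval in 10 islands. In SUDHL6 the first 57.95 kb of the interval held no island, and H3K27me3 began at 27187951. The marked portion thus began earlier in SUDHL6. Further on, SUDHL6 had a gap of 26.4 kb (27195151 to 27221550) into which 5 HT islands reached. The widest HT islands were 7.80 kb (27193201 to 27201000), 5.40 kb (27247351 to 27252750, which crosses the end of the interval) and 4.35 kb (27226801 to 27231150). The widest SUDHL6 islands were 4.65 kb (27221551 to 27226200), 4.20 kb (27190951 to 27195150) and 3.45 kb (27242851 to 27246300). Of the H3K27me3 bases of either line in HOXA, 28.2% were covered in both, against 12.4% in HOXB, 10.8% in HOXC and 10.2% over the whole lists. This share is limited by how unequal the covers are, and the ratio of HT to SUDHL6 was 1.98 in HOXA, 7.43 in HOXB and 8.28 in HOXC. Of the SUDHL6 bases alone, 65.6% were also covered in HT in HOXA, less than in HOXB (92.8%) and HOXC (90.2%).

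HOXB carried H3K27me3 in most of its bins in HT and at 4 places in SUDHL6. Of the 21 whole bins of 10 kb, which leave out the last 5 kb of the interval, 18 held H3K27me3 in HT and 3 in SUDHL6. The last of the 20 HT islands, from 46810951 to 46817400, lay beyond these bins and crossed the end of the interval. The widest HT island was 11.85 kb (46691401 to 46703250), and 2 of 6.90 kb followed (46673851 to 46680750 and 46799401 to 46806300). Between 46757401 and 46799400 neither line had an island of any antibody, a gap of 42 kb. The SUDHL6 islands lay at 46662601 to 46665000, 46671901 to 46675200, 46676251 to 46678950 and 46713601 to 46715550. HT H3K27me3 covered 100% of 3 of these and 77.3% of the one at 46671901.

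HOXD had H3K27me3 in HT only, in 9 islands of 0.9 to 5.85 kb. The 4 widest lay nearest the low-coordinate end, which is the HOXD13 end in GRCh38 order. The widest were 5.85 kb (176950951 to 176956800), 4.05 kb (176959501 to 176963550) and 3 kb (176975251 to 176978250). A gap of 40.95 kb followed the seventh island, and 2 further islands lay at 177051751 to 177053400 and 177056101 to 177058050. No SUDHL6 island of any antibody overlapped HOXD.

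Counted by island, nearly all SUDHL6 H3K27me3 islands of the clusters met one of HT, but not the reverse. An HT H3K27me3 island was overlapped by 15 of 16 SUDHL6 islands (93.75%, exact Clopper-Pearson 95% interval 69.8 to 99.8%), against 27.8% of the whole SUDHL6 list. The exception, at 27187951 to 27189300 in HOXA, lay wholly under an EZH2 island of HT. In the other direction 14 of 53 HT islands met a SUDHL6 island (26.4%, 15.3 to 40.3%), against 21.2% of the whole HT list, a share near the background. These intervals cover counting error only, and islands of 1 cluster are not independent. Where HT covers more of a region, SUDHL6 islands there have more to meet, and the part of this in the share was not tested.

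EZH2 cover in HT was also highest in HOXC. HT EZH2 islands covered 62.1% of HOXC (74.55 kb in 11 islands), 19.6% of HOXA (23.55 kb in 5), 7.60% of HOXB (16.35 kb in 5) and 1.25% of HOXD (1.5 kb in 1). In SUDHL6 the only EZH2 islands were 3 in HOXC, covering 11.55 kb (9.63%). The 4 clusters made up 1.06% of all bases under HT EZH2 islands and 0.132% of those under SUDHL6 EZH2 islands. For H3K27me3 the shares were 0.443% and 0.0824%. As cover of the 575 kb, EZH2 reached 20.2% in HT and 2.01% in SUDHL6, beside means of 0.357% and 0.285% of the 120 kb windows. H3K27me3 reached 41.9% and 7.36%, beside means of 1.78% and 1.68%, so the SUDHL6 cover was also above its window means.

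EZH2 cover was higher in HT by at least 10 points in 2 of the 4 clusters, by 19.6 points in HOXA and 52.5 in HOXC. This was so in 0.267% of the 120 kb windows, and the opposite in 0.545%. At 5 points the order of these shares was the other way, with 1.61% higher in HT and 1.34% in SUDHL6, and at 20 points (0.0627% and 0.145%) HOXA no longer passed. A difference as large as that of HOXC was found in 1 of the 25503 windows, and none had an HT EZH2 cover as high. The widest HT EZH2 islands of HOXC were 12 kb (54393601 to 54405600), 10.65 kb (54382351 to 54393000) and 7.65 kb (54373951 to 54381600). The first ranked 52 by width among 2523 islands. In HOXA the widest were 7.80 kb (27196951 to 27204750), 5.40 kb (27208951 to 27214350) and 4.35 kb (27234451 to 27238800), and in HOXB 6.30 kb (46685551 to 46691850), 3.6 kb (46806451 to 46810050) and 3.15 kb (46695001 to 46698150). The HOXD island lay at 176961601 to 176963100, inside the second H3K27me3 island of HT.

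The 3 SUDHL6 EZH2 islands sat together in the middle of HOXC, at 54388801 to 54393150, 54397801 to 54402750 and 54403351 to 54405600. HT EZH2 islands covered 96.6%, 100% and 100% of them. The last ended at 54405600, the same base as the widest HT EZH2 island. All 3 met an HT EZH2 island (exact interval 29.2 to 100%), against 19.4% of the whole SUDHL6 list. HT EZH2 covered 62.1% of HOXC, and the part of this cover in that share was not tested. In the other direction 2 of 22 HT islands met one of SUDHL6 (9.09%, 1.12 to 29.2%), against 11.5% of the whole HT list. HT H3K27me3 covered 100% of each of the 3.

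EZH2 and H3K27me3 of the same line shared most EZH2 bases in HT and 19.5% of them in SUDHL6, against 55.4% over the SUDHL6 list. The SUDHL6 share came from 1 overlap of 2.25 kb in HOXC. In HT, 21 of 22 EZH2 islands of the clusters met H3K27me3 (95.5%, 77.2 to 99.9%), against 48.9% of the whole list, and 82.0% of the EZH2 bases lay under H3K27me3, against 36.9% over the list. In HOXC 93.4% of EZH2 bases lay under H3K27me3 and 68.3% of H3K27me3 bases under EZH2. Counted from the other mark, 22 of 53 HT H3K27me3 islands met EZH2 (41.5%, 28.1 to 55.9%), against 7.77% of the list. HT H3K27me3 covered 41.9% of the 4 intervals and HT EZH2 20.2%, beside means of 1.78% and 0.357% of the 120 kb windows. The part of this cover in the HT shares was not tested. In SUDHL6, 1 of the 3 EZH2 islands met H3K27me3 (33.3%, 0.840 to 90.6%), against 65.5% of the list, and 1 of 16 H3K27me3 islands met EZH2 (6.25%, 0.158 to 30.2%), against 9.45%. That place was the H3K27me3 island from 54400201 to 54402450, which lay wholly inside the second SUDHL6 EZH2 island. Both SUDHL6 intervals include the share of its list. The intervals cover counting error only and islands of 1 cluster are not independent, so in neither line do they test a share against its list.

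Outside HOXC, EZH2 took up a smaller portion of the H3K27me3 bases of HT. The share under EZH2 was 38.1% in HOXA, 11.9% in HOXB and 6.41% in HOXD. Of the EZH2 bases 63.1% lay under H3K27me3 in HOXA and 56.0% in HOXB, less than in HOXC. In HOXD the share was 100%, from a single EZH2 island of 1.5 kb. The 3 widest HOXA EZH2 islands, from 27196951, 27208951 and 27234451, lay 92.3%, 88.9% and 27.6% within H3K27me3. The one from 27187951 to 27192150 was the only HT EZH2 island of the 4 clusters without H3K27me3 of HT. SUDHL6 H3K27me3 covered 60.7% of it, and both began at base 27187951. In HOXB the EZH2 island from 46685551 to 46691850 was 28.6% covered by HT H3K27me3, and it contained the only H3K4me3 islands of the cluster.

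H3K4me3 was scarce in the clusters, with 4 islands over 5.25 kb in HT (0.913% of the 575 kb) and 6 over 10.05 kb in SUDHL6 (1.75%). Most lay in HOXA, with 3 in HT (3.13% of the interval) and 4 in SUDHL6 (6.25%). HOXB had 1 in each line, HOXC 1 in SUDHL6, and HOXD none. With no cover above 6.25%, no cluster could differ between the lines by 10 points in H3K4me3. That limit was passed by 0.0627% of windows in favour of HT and 0.376% in favour of SUDHL6. The largest difference, in HOXA, was -3.125 points (HT lower), and 890 of the 25503 windows of 120 kb (3.49%) differed at least as much in that direction. The H3K4me3 length of the whole lists was also lower in HT (ratio 0.773), and on the chromosome of HOXA outside the cluster the ratio was 0.528, beside 0.5 within HOXA. The ratio in HOXA was thus close to that of its chromosome.

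In the portion of HOXA without H3K27me3, H3K4me3 lay at the same 2 places in both lines. The first was 27135301 to 27137400 in HT and 27135001 to 27136950 in SUDHL6. The second was 27170251 to 27170850 in HT and 27169651 to 27171300 in SUDHL6, which contains the HT island. A further place shared by the lines was in HOXB, where the islands began at the same base and spanned 46687801 to 46689300 in HT and 46687801 to 46688700 in SUDHL6. Of the HT islands 3 of 4 met one of SUDHL6 (75.0%, 19.4 to 99.4%), against 74.4% of the list, and of the SUDHL6 islands 3 of 6 met one of HT (50%, 11.8 to 88.2%), against 59.0%. Both shares are near their backgrounds. The remaining islands were in 1 line each, 1 in HT at 27190051 to 27191100, and 3 in SUDHL6 at 27194251 to 27196500, 27239551 to 27241200 and 54447151 to 54448800.

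A border was counted between an H3K4me3 island and each H3K27me3 island of the same line that overlapped it. The nearest H3K27me3 island without overlap on either side also counted if within 5 kb, even where an overlapping island lay between. Borders were found in HOXA and HOXB. HT had 2 in HOXA. The H3K4me3 island at 27190051 to 27191100 ended 2.10 kb before the H3K27me3 portion began at 27193201, and the island at 27135301 lay 4.50 kb after the short H3K27me3 island at the start of the interval. EZH2 of HT covered 100% of the former H3K4me3 island and 0% of the latter. HT had 2 borders in HOXB, both at the H3K4me3 island from 46687801. It overlapped the H3K27me3 island from 46688851 to 46690200 by 450 bp, and EZH2 covered 100% of it. Beyond the overlapped island, the widest H3K27me3 island of the cluster began 2.10 kb after the end of the H3K4me3 island.

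SUDHL6 had 5 borders, all in HOXA and at 2 H3K4me3 islands. The island from 27194251 to 27196500 overlapped the H3K27me3 island from 27190951 to 27195150 by 900 bp. It lay 4.95 kb after the H3K27me3 island ending at 27189300, with the overlapped island between them. The island from 27239551 to 27241200 overlapped the H3K27me3 island from 27240151 to 27242250 by 1050 bp. Further H3K27me3 lay 0.450 kb before it and, beyond the overlapped island, 1.65 kb after it. The single H3K4me3 islands of SUDHL6 in HOXB and HOXC were 8.85 kb and 17.25 kb from the nearest H3K27me3. Both lines thus had a border near the start of the marked portion of HOXA, with H3K4me3 at 27190051 to 27191100 in HT and at 27194251 to 27196500 in SUDHL6, on opposite sides of base 27193201 where HT H3K27me3 began. A border was present at 3 of 4 H3K4me3 islands of the clusters in HT (75.0%, 19.4 to 99.4%), against 7.05% of the whole list, and at 2 of 6 in SUDHL6 (33.3%, 4.33 to 77.7%), against 6.87%. By overlap alone, H3K27me3 met 1 of 4 H3K4me3 islands in HT (25.0%, 0.631 to 80.6%), against 3.10% of the list, and 2 of 6 in SUDHL6 (33.3%, 4.33 to 77.7%), against 2.35%. H3K27me3 covered 41.9% of the intervals in HT and 7.36% in SUDHL6, beside means of 1.78% and 1.68% of the 120 kb windows. The part of this cover in the border and overlap shares was not tested. H3K4me3 was met by 2 of 22 EZH2 islands of HT (9.09%, 1.12 to 29.2%), against 33.8% of the list, and by 0 of 3 in SUDHL6 (0 to 70.8%), against 16.5%.

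Few bases carried opposite marks in the lines. Of the 575 kb, 4.95 kb had H3K27me3 in 1 line and H3K4me3 in the other, and all but 0.15 kb of this was H3K27me3 in HT. The 2 stretches of at least 1.5 kb were both in HOXA, at 27194251 to 27196500 (2.25 kb) and 27239551 to 27241200 (1.65 kb), which are the bordering H3K4me3 islands of SUDHL6. SUDHL6 H3K27me3 lay over 40.0% of the first and 63.6% of the second, so neither was a plain exchange of marks. A shorter stretch of 0.9 kb lay in HOXC from 54447151 to 54448050, and 0.15 kb in HOXA from 27190951 to 27191100 had H3K4me3 in HT and H3K27me3 in SUDHL6. H3K4me3 is itself scarce in the clusters, which limits how many bases can carry opposite marks. Of the SUDHL6 H3K4me3 bases of the clusters, 4.8 of 10.05 kb (47.8%) lay under HT H3K27me3, against 2.95% over the whole lists. Of the HT H3K4me3 bases 2.86% lay under SUDHL6 H3K27me3, against 1.27%. HT H3K27me3 covered 41.9% of the 575 kb and SUDHL6 H3K27me3 7.36%, beside means of 1.78% and 1.68% of the 120 kb windows. The part of this cover in these shares was not tested. Seen from the other mark, 1.99% of the HT H3K27me3 bases of the clusters had H3K4me3 in SUDHL6, against 1.79% over the whole list. Of the 575 kb, 204.25 kb (35.5%) had H3K27me3 in HT and neither mark in SUDHL6, 8.55 kb (1.49%) the reverse, 31.65 kb (5.50%) H3K27me3 alone in both lines, and 318.4 kb (55.4%) neither mark in either line.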

How the data were processed

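ChIP-seq islands of HT and SUDHL6 were used, with 1 library for each of 3 antibodies per line. The deposited lists hold the chromosome, start, end and a whole-number score per island. What this score counts was not given, and it was used only to rank islands within a list. The submitters' processing notes name SICER and the build hg19. Windows of 150 bp, gaps of 450 bp and a false discovery rate of 1E-7 stand in the deposited list names. No source used here gives the aligner, read filters, control or depth, and the H3K27me3 lists carry another normalization tag than the others, so levels were not compared between antibodies.

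Cover is the share of an interval's bases under islands, with islands clipped to the interval. Widths and overlap counts use whole islands and at least 1 bp. A missing depth means that precision per island is not known. The background is every 120 kb window up to the last island of each chromosome. Islands described in full are the 3 widest per cluster and antibody, all borders and all stretches with opposite marks. The members, intervals and lists were chosen with earlier results of these data known. Promoter windows listed more than once were counted once. A planned count for HOX partner genes needed hg19 gene positions and was not run. Interval steps were checked on simulated islands. Alternatives were the upper 50% of islands by score, a minimum width of 1 kb, joining across 5 kb, equal numbers or lengths, intervals widened by 20 kb or narrowed by 10 kb, and other overlaps and limits. The scripts ran in Python 3.11.15 with numpy 2.4.6 and scipy 1.17.1, and plots were drawn with matplotlib 3.10.9. Order and sequences of genes came from RefSeq (GRCh38.p14).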

Additional observations from a re-analysis of the deposited data

How the results depend on the processing

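No paired analysis was possible because each line and antibody had 1 library. Under all alternatives H3K27me3 and EZH2 cover of the 4 clusters together was higher in HT, and H3K4me3 cover was higher in SUDHL6. The H3K27me3 difference of 34.6 points was 43.8 with islands joined and 32.1 with intervals widened. The EZH2 difference of 18.2 points was 16.2 in the upper 50% by score, 15.6 with equal numbers of islands, 16.4 with equal covered length, 21.9 with islands joined and 14.8 with intervals widened. Leaving out a cluster and windows as long as HOXB were added after seeing the data. Without HOXC the H3K27me3 difference was 24.0 and the EZH2 difference 9.10. Without HOXA, HOXB and HOXD the H3K27me3 difference was 39.5, 36.7 and 38.6, and without HOXB and HOXD the EZH2 difference was 24.5 and 22.6. The H3K4me3 difference of -0.83 points was -0.23 without HOXA and -1.50 without HOXB. Bases with opposite marks were 4.95 kb, and 2.25 kb in the upper 50% by score, 2.85 kb with intervals narrowed and 0.9 kb without HOXA. No difference of a single cluster reversed, but some were lost. In the upper 50% by score the EZH2 difference of HOXD (1.25 points) and the H3K4me3 differences of HOXB (0.28) and HOXC (-1.38) were 0. That of HOXD was also 0 with equal numbers and equal lengths, and that of HOXC with intervals narrowed. The H3K4me3 difference of HOXB was 0.70 points with equal numbers, with equal lengths and with a minimum width of 1 kb. The EZH2 difference of HOXB, 7.60 points, was 2.93 in the upper 50% and 4.40 with equal numbers or lengths, and the H3K27me3 difference of HOXD, 19.5 points, ranged from 12.9 in the upper 50% to 31.6 with islands joined. When 50% of an island had to be covered, 5 of 14 overlap shares moved. HT H3K27me3 islands with HT EZH2 were 26.4% in place of 41.5%, against 6.06% of the whole list at the same overlap. Those with SUDHL6 H3K27me3 were 15.1% in place of 26.4%, against 14.5%, a share near the background. HT H3K4me3 islands with H3K27me3, HT EZH2 islands with H3K4me3 and SUDHL6 EZH2 islands with H3K27me3 were 0%, in place of 25%, 9.09% and 33.3%. The whole-list shares at this overlap were 1.60%, 18.9% and 51.7%. HT EZH2 islands with H3K27me3 were 81.8% in place of 95.5%, against 41.9% of the whole list at this overlap. SUDHL6 H3K27me3 islands with that of HT were 81.25% in place of 93.75%, against 18.8%. Read depth was not given, so how far it limits the SUDHL6 lists is not known.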
